A study of Sus scrofa with 28 samples.

Results

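The remote zone of the pig left ventricle, the muscle away from the infarct, was compared 28 days after ischaemia and reperfusion between animals given Agrin and animals given PBS. Its members are the 7 remote zone libraries of day 28, 4 from Agrin animals (519, 522, 544 and 548) and 3 from PBS animals (523, 536 and 547), of 28 libraries from 14 animals in the series. The comparison sets different animals against each other and has no pairs. All pigs were wild type and 3 months old, of both sexes, and in all of them the left anterior descending artery had been closed for a time with a balloon. The Agrin animals received recombinant human agrin at 33 µg per kg into the coronary artery at reperfusion, and the PBS animals received the carrier, which the study calls saline. RNA came from ground frozen tissue, so each library is a mixture of cell types, and fewer cells of a type cannot be told apart from less RNA per cell. Nothing in the labels says how the sampled part of the remote zone was positioned beyond the dye-based separation of living from infarcted tissue.

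Agrin is a large proteoglycan of the extracellular matrix that binds dystroglycan, a receptor linking the matrix to the cytoskeleton of muscle cells. In the heart it is best known for releasing YAP, a co-activator of the Hippo pathway, from the dystroglycan complex in cardiomyocytes. The remote zone did not lose its blood supply, but after an infarct it carries a higher load, and interstitial collagen, macrophages and fetal cardiac genes are the usual measures of its remodelling. The comparison asks whether such measures differed between the treatments a month after a single dose.

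No gene passed the test. Of 14324 genes tested with edgeR's quasi-likelihood test, 0 had a Benjamini-Hochberg adjusted p under 0.05 (0.0%), and the lowest adjusted p was 0.132. At an unadjusted p under 0.05, 656 genes remained, 240 of them higher in Agrin (1.68% of genes tested) and 416 lower in Agrin (2.9%). DESeq2 on the same counts placed 9 genes past the adjusted p (0.0628%), of which 5 also differed at least 2-fold. All 4 Agrin libraries lay above all 3 PBS libraries for 409 genes (2.86%) and below them for 366 genes (2.56%). Fold changes are Agrin over PBS on the log2 scale, and their median over all genes tested was -0.02.

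The precision behind this count differed with expression. The median half-width of the 95% interval was 0.44 on the log2 scale, and for 10578 genes (73.8%) the whole interval lay inside a 2-fold change in either direction. Among the 2708 genes with a mean level of at least 50 CPM (counts scaled to equal effective library size), this held for 93.9%, and among the 4535 genes under 5 CPM for 37.3%. A 2-fold difference was therefore outside the interval for most abundant genes and inside it for most rare ones.

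**Figure D1:**
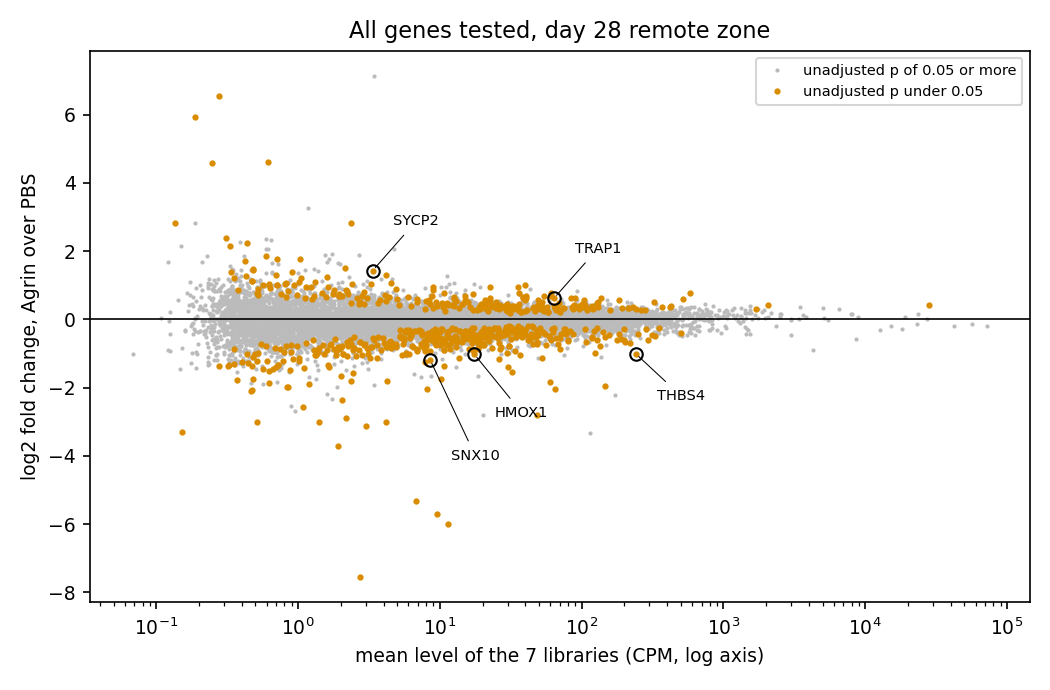
Log2 fold change of Agrin over PBS against the mean level of the 7 libraries (CPM, log axis), with 1 point per gene tested and the 656 genes at an unadjusted p under 0.05 in orange. The spread widens at low levels, and the ringed genes, TRAP1, SYCP2, HMOX1, THBS4 and SNX10, are among those with the lowest p.

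The libraries held 23.9 to 31.9 M counts in the Agrin group and 26.0 to 28.2 M counts in the PBS group. One PBS library, from animal 523, stood apart. Its TMM factor was 1.22, against 0.92 to 1.12 in the other day 28 remote libraries, and of 46 gene lists its summed level was the highest of the 7 libraries for 18 and the lowest for 13. Ventricular cardiomyocyte markers were abundant in every library: MYH7, the slow myosin heavy chain of the ventricle, had 33557, 31243, 31633 and 30522 CPM in Agrin libraries, against 16253, 28525 and 26081 CPM in PBS libraries. Summed over 22 sarcomere and Z-disc genes, the level was 83785 to 88801 CPM in Agrin and 54905 CPM in PBS animal 523, with 84994 and 77284 CPM in the other PBS animals. Transcripts of the Y chromosome were present in 2 of 4 Agrin and 1 of 3 PBS libraries, and on the first axis of a multidimensional scaling these 3 libraries lay on one side. The part of either feature in the gene results was not tested, beyond the values without animal 523 given below.

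The mitochondrial genome supplied 28.6 ± 4.56% of counts in Agrin libraries and 31.0 ± 6.82% in PBS libraries (SD, n = 4 and 3). The shares were 32.0, 32.7, 26.5 and 23.2% in Agrin animals, against 23.1, 34.5 and 35.3% in PBS animals, so the groups overlapped. The difference was -2.37 percentage points (exact permutation test, two-sided, p = 0.629), in a design whose smallest possible p is 0.0571. Without PBS animal 523 the difference was -6.30 percentage points.

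The genes with the lowest p are described by their values, since none passed edgeR's test. TRAP1, a mitochondrial chaperone of the HSP90 family, had 75.5, 72.0, 77.7 and 74.2 CPM in Agrin libraries, against 52.7, 46.9 and 46.1 CPM in PBS libraries. The groups did not overlap, and the means were 74.9 ± 2.38 and 48.6 ± 3.57 CPM (SD, n = 4 and 3). The log2 fold change was 0.61 ± 0.09 (SE), a ratio of 1.53, with an edgeR adjusted p of 0.132 and a DESeq2 adjusted p of 2.46e-07. Both fits shared their spread with the day 3 libraries. In a fit of the 7 day 28 libraries alone the edgeR adjusted p was 0.822. In the infarct zone of the same animals TRAP1 had 71.0, 73.6, 84.8 and 70.5 CPM in Agrin, against 26.4, 40.8 and 37.4 CPM in PBS libraries, again without overlap. These are the same animals, so the infarct values are no independent support.

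HMOX1 encodes haem oxygenase 1, a stress-induced enzyme that breaks down haem. It had 13.4, 10.99, 11.4 and 12.8 CPM in Agrin libraries, against 24.6, 18.9 and 30.04 CPM in PBS libraries. Every Agrin library lay below every PBS library, with a log2 fold change of -1.02 ± 0.16 and an edgeR adjusted p of 0.132 (DESeq2 adjusted p = 3e-05). In the fit of the 7 day 28 libraries alone the edgeR adjusted p was 0.822. NQO1, a quinone reductase, had means of 14.6 ± 1.03 CPM in Agrin and 20.2 ± 0.67 CPM in PBS libraries, a log2 fold change of -0.47 ± 0.12 (edgeR adjusted p = 0.967). Its infarct groups overlapped, at 14.9 to 17.2 CPM in Agrin and 16.2 to 19.0 CPM in PBS libraries. In the day 3 remote zone its log2 fold change was 0.22 ± 0.12. Without PBS animal 536, HMOX1 had a log2 fold change of -1.18 and an edgeR adjusted p of 0.0473, and it was then the only gene called.

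THBS4, a thrombospondin of the heart matrix, had 149.7, 142.0, 183.3 and 199.3 CPM in Agrin libraries, against 480.1, 223.8 and 303.8 CPM in PBS libraries. The highest value was that of animal 523, and without it the log2 fold change was -0.64 in place of -1.01 ± 0.20 (edgeR adjusted p = 0.854, DESeq2 adjusted p = 0.0124). The infarct zones of the same animals held 134.2, 368.6, 140.7 and 357.5 CPM in Agrin and 3455, 947.8 and 908.1 CPM in PBS libraries. On day 3 the remote libraries of other animals held 222.5, 240.7, 203.8 and 233.7 CPM in Agrin, against 161.5, 164.2 and 169.3 CPM in PBS libraries, so the 2 groups stood in the opposite order there.

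SRGN, the proteoglycan core of leukocyte granules, had 23.1, 18.5, 21.1 and 21.0 CPM in Agrin libraries, against 47.0, 31.4 and 44.3 CPM in PBS libraries. Its log2 fold change was -0.98 ± 0.21 (edgeR adjusted p = 0.967, DESeq2 adjusted p = 0.0383). SNX10, a sorting nexin of endosomes, had 5.43, 6.51, 5.2 and 4.94 CPM in Agrin libraries, against 7.60, 11.8 and 18.2 CPM in PBS libraries. FHL3, a LIM protein of muscle, had 9.66 ± 0.83 CPM in Agrin and 13.5 ± 0.70 CPM in PBS libraries, and NCS1, a neuronal calcium sensor, 4.33 ± 0.58 CPM in Agrin and 7.09 ± 0.85 CPM in PBS libraries (SD, n = 4 and 3). For SNX10, FHL3 and NCS1 the groups did not overlap, with DESeq2 adjusted p of 0.0383, 0.0364 and 0.0452 and an edgeR adjusted p of 0.967 for each.

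**Figure D2:**
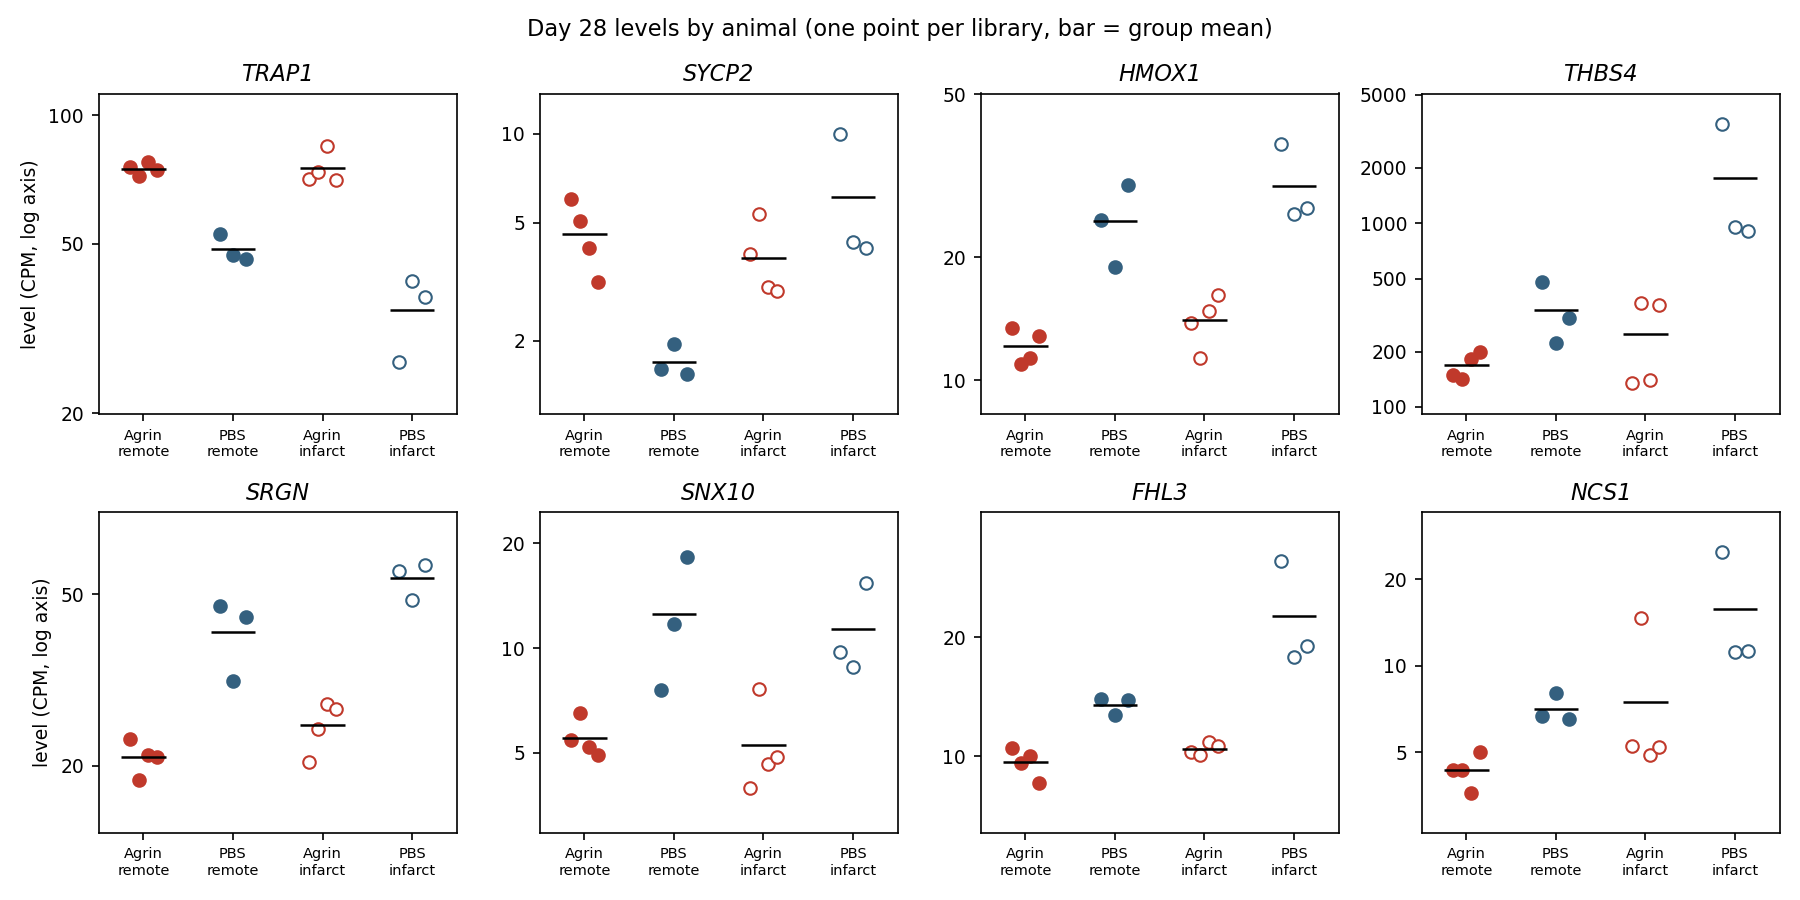
Levels (CPM, log axis) of 8 named genes that passed the adjusted p by DESeq2, with 1 point per library and a bar at the group mean. Filled points are remote and open points infarct libraries of the same animals. In the remote zone the Agrin and PBS points do not overlap for any of the 8 genes, whereas for SYCP2 and NCS1 the infarct points do.

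SYCP2, a component of the meiotic chromosome axis, had 6.00, 5.08, 4.11 and 3.16 CPM in Agrin libraries, against 1.60, 1.95 and 1.55 CPM in PBS libraries. Its log2 fold change was 1.42 ± 0.32 (edgeR adjusted p = 0.967, DESeq2 adjusted p = 0.0335). The same animals' infarct zones held 3.93, 5.36, 3.03 and 2.95 CPM in Agrin and 9.97, 4.32 and 4.11 CPM in PBS libraries, an overlapping set with the higher mean in PBS. The other genes of lowest p with higher values in Agrin were KHDRBS3, SIVA1, SLC4A1AP, MARK1, NKTR, HIPK3, ATP8A1, SPATA6L, TP73 and TNFRSF17, with log2 fold changes between 0.33 for NKTR and 2.25 for TNFRSF17. TNFRSF17, a receptor of plasma cells, stayed under 1 CPM in every library. Those with lower values in Agrin also included METTL27, YIPF1, RHOU, WSCD1 and TFPI2, between -1.99 for METTL27 and -0.78 for TFPI2. Of these 24 genes, 12 in each direction, 22 had groups without overlap, which follows from choosing them by their p in these libraries. In the infarct zone of the same animals 14 of the 24 were without overlap in the same direction, where over all genes tested 12% lay above and 12.3% below PBS without overlap. Because both zones came from the same animals, that count is no independent support. In the day 3 remote zone, from other animals, 12 of the 24 had the same sign. There 1 (METTL27, whose day 28 groups overlapped) was without overlap in the same direction, beside 2.58% of all genes above and 2.68% below. THBS4 and TNFRSF17 were without overlap in the opposite direction.

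By position, TRAP1 lies on chromosome 3 (38536710 to 38595273), THBS4 on chromosome 2 (88729531 to 88780759), SRGN on chromosome 14 (72183368 to 72199262) and SYCP2 on chromosome 17 (59875992 to 59962314), each as a protein-coding gene in the RefSeq annotation of Sscrofa11.1. HMOX1 is on a sequence that this annotation does not assign to a chromosome.

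An unnamed gene outside the rule for named genes, ENSSSCG00000012071, was singled out after its values were seen. It had 0, 1, 0 and 2 counts in Agrin libraries, against 4, 314 and 159 counts in PBS libraries. The infarct zones of the same animals held 3, 0, 2 and 1 counts in Agrin and 9, 314 and 138 counts in PBS libraries. Both zones of PBS animals 536 and 547 were high and both zones of PBS animal 523 were near the Agrin values. Without animal 523 it was the only gene called by edgeR. A second unnamed gene, ENSSSCG00000002825, passed by DESeq2 (adjusted p = 0.0048) with 5, 19, 6 and 3 counts in Agrin and 12, 177 and 118 counts in PBS libraries, where animal 523 again lay within the range of the Agrin libraries.

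The agrin pathway itself had overlapping groups. AGRN, the pig's own agrin gene, had 73.7, 79.1, 71.0 and 61.8 CPM in Agrin libraries, against 97.9, 59.9 and 90.9 CPM in PBS libraries (log2 fold change -0.23 ± 0.18, 95% interval -0.60 to 0.15). DAG1, which encodes dystroglycan, had 329.3, 266.7, 310.0 and 295.1 CPM in Agrin libraries, against 203.0, 335.0 and 299.5 CPM in PBS libraries (0.10 ± 0.16). Its sign turned without PBS animal 523, to -0.08. Of 15 genes of the agrin and dystroglycan complex tested, 0 passed the adjusted p, 1 was higher at an unadjusted p under 0.05 (beside 1.68%), and the median log2 fold change was 0.10, against -0.02 over all genes. The sign of that median turned without PBS animal 523, to -0.08, and without PBS animal 536 it was 0.21. The gene at the unadjusted threshold was SGCA, a sarcoglycan of muscle, at 0.42 ± 0.17. Of 13 targets of YAP and TEAD, 0 passed and 0 were at an unadjusted p under 0.05. The median of these targets was 0.07, with -0.02 without PBS animal 523 and 0.14 without PBS animal 547. Among them CCN2, a matricellular growth factor, had 97.3, 53.4, 36.7 and 47.6 CPM in Agrin libraries, against 41.3, 47.7 and 225.3 CPM in PBS libraries, the last from animal 547, without which its log2 fold change of -0.84 ± 0.53 was 0.39. ANKRD1, a stretch-responsive nuclear protein of cardiomyocytes, had a log2 fold change of 0.07 ± 0.40.

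Interstitial matrix genes had mostly negative fold changes, with no gene past the test. COL1A1 had 1071, 987, 988 and 2283 CPM in Agrin libraries, against 2059, 683 and 1893 CPM in PBS libraries, and COL3A1 had 2486, 2914, 2428 and 4161 CPM in Agrin libraries, against 4815, 1896 and 2176 CPM in PBS libraries. Agrin animal 548 was high for both, within the PBS range for COL3A1 and above it for COL1A1. Their log2 fold changes were -0.23 ± 0.45 for COL1A1 (0.05 without PBS animal 523) and 0.00 ± 0.39 for COL3A1 (0.56 without that animal). FN1 (fibronectin) was at -0.19 ± 0.30, POSTN (periostin) at -0.62 ± 0.31 and TIMP1, an inhibitor of matrix proteases, at -0.68 ± 0.32, or -0.32 without PBS animal 523. Without that animal FN1 was at -0.06 and without PBS animal 547 POSTN was at -0.36. ACTA2, the smooth muscle actin that myofibroblasts also make, had 82.2, 62.0, 83.3 and 89.4 CPM in Agrin libraries, against 163, 67.0 and 88.1 CPM in PBS libraries, and its log2 fold change of -0.43 ± 0.44 was 0.03 without animal 523. TIMP1 had 13.03, 11.5, 12.7 and 16.1 CPM in Agrin libraries, against 30.2, 10.8 and 22.7 CPM in PBS libraries.

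Over the 19 collagen chains tested, 17 had a negative log2 fold change and 0 passed the adjusted p, with a median of -0.23. Without PBS animal 523 the median was 0.06, and without PBS animal 536 it was -0.52. Over 26 matrix glycoproteins and proteoglycans all 26 were negative and 7 were at an unadjusted p under 0.05 (beside 2.9% of all genes lower at that threshold). The median of -0.41 was -0.06 without animal 523 and -0.66 without animal 536. THBS4 had the lowest p of this list, followed by the matrix proteins MFAP4, COMP and FMOD. MFAP4 was at -0.66 ± 0.23. FMOD (fibromodulin) had 33.7, 18.0, 18.9 and 41.8 CPM in Agrin libraries, against 28.3, 27.7 and 288 CPM in PBS libraries, and its log2 fold change of -2.03 ± 0.77 was -0.01 without PBS animal 547. COMP had 35, 0, 7 and 0 counts in Agrin libraries, against 3, 56 and 1848 counts in PBS libraries, so that animal 547 held most of its counts and the log2 fold change of -5.99 ± 2.16 was -1.49 without it. The summed level of the glycoproteins was 4022, 3713, 3589 and 4983 CPM in Agrin libraries, against 7231, 3419 and 5502 CPM in PBS libraries, so the PBS library of animal 536 lay below all 4 Agrin libraries. The 79 measured genes of the study's mouse myofibroblast signature had 70 negative fold changes and 5 lower at an unadjusted p under 0.05 (beside 2.9%). Their median of -0.25 was 0.00 without animal 523 and -0.52 without animal 536. PLAT, a protease that activates plasminogen, was at -0.72 ± 0.31 with groups that did not overlap, and at -0.26 without PBS animal 523.

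Macrophage genes also had mostly negative fold changes. Of 24 tested, 23 were negative, 6 were lower at an unadjusted p under 0.05 (beside 2.9% of all genes), 2 had every Agrin library below every PBS library (beside 2.56%) and 0 passed the adjusted p. Their summed level was 634, 572, 692 and 753 CPM in Agrin libraries, against 1204, 779 and 787 CPM in PBS libraries, so the groups did not overlap, although PBS animals 536 and 547 lay close to the highest Agrin library. Their median was -0.51, with -0.23 without animal 523 and -0.65 without animal 536. CD68, a lysosomal protein of macrophages, had 7.82, 8.57, 10.9 and 11.3 CPM in Agrin libraries, against 18.5, 10.9 and 8.47 CPM in PBS libraries, and its log2 fold change of -0.40 ± 0.31 was 0.00 without animal 523. CD163, the haemoglobin scavenger receptor, had 76.8, 34.0, 46.0 and 47.5 CPM in Agrin libraries, against 79.7, 91.1 and 42.3 CPM in PBS libraries. SPP1 (osteopontin), made by activated macrophages, had 4.71, 3.25, 4.70 and 13.6 CPM in Agrin libraries, against 7.11, 3.34 and 28.1 CPM in PBS libraries, and its log2 fold change of -0.98 ± 0.67 was 0.31 without animal 547. FOLR2, a folate receptor of resident macrophages, was at -0.66 ± 0.23 with groups that did not overlap.

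The study's mouse macrophage signature had 70 genes measured, of which 59 were negative, 20 were lower and 1 was higher at an unadjusted p under 0.05, and 0 passed the adjusted p. The share lower at that threshold, 20 of 70, stands beside 2.9% of all genes. The median log2 fold change was -0.43, with -0.15 without animal 523 and -0.61 without animal 536. The signature's summed level was 2508, 2848, 2849 and 2934 CPM in Agrin libraries, against 4269, 2673 and 3217 CPM in PBS libraries, with PBS animal 536 inside the Agrin range. MHC class II genes had a median of -0.51, with -0.14 without animal 523 and -0.72 without animal 536. Endothelial genes, which mark vessels, had a median of -0.26, which changed sign to 0.14 without animal 523 and was -0.40 without animal 536. The summed endothelial level of animal 523 was 3331 CPM, against 1924 to 2210 CPM in the other 6 libraries. The higher levels in animal 523 covered matrix, macrophage and vessel genes together, beside its lower sarcomere sum.

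**Figure D3:**
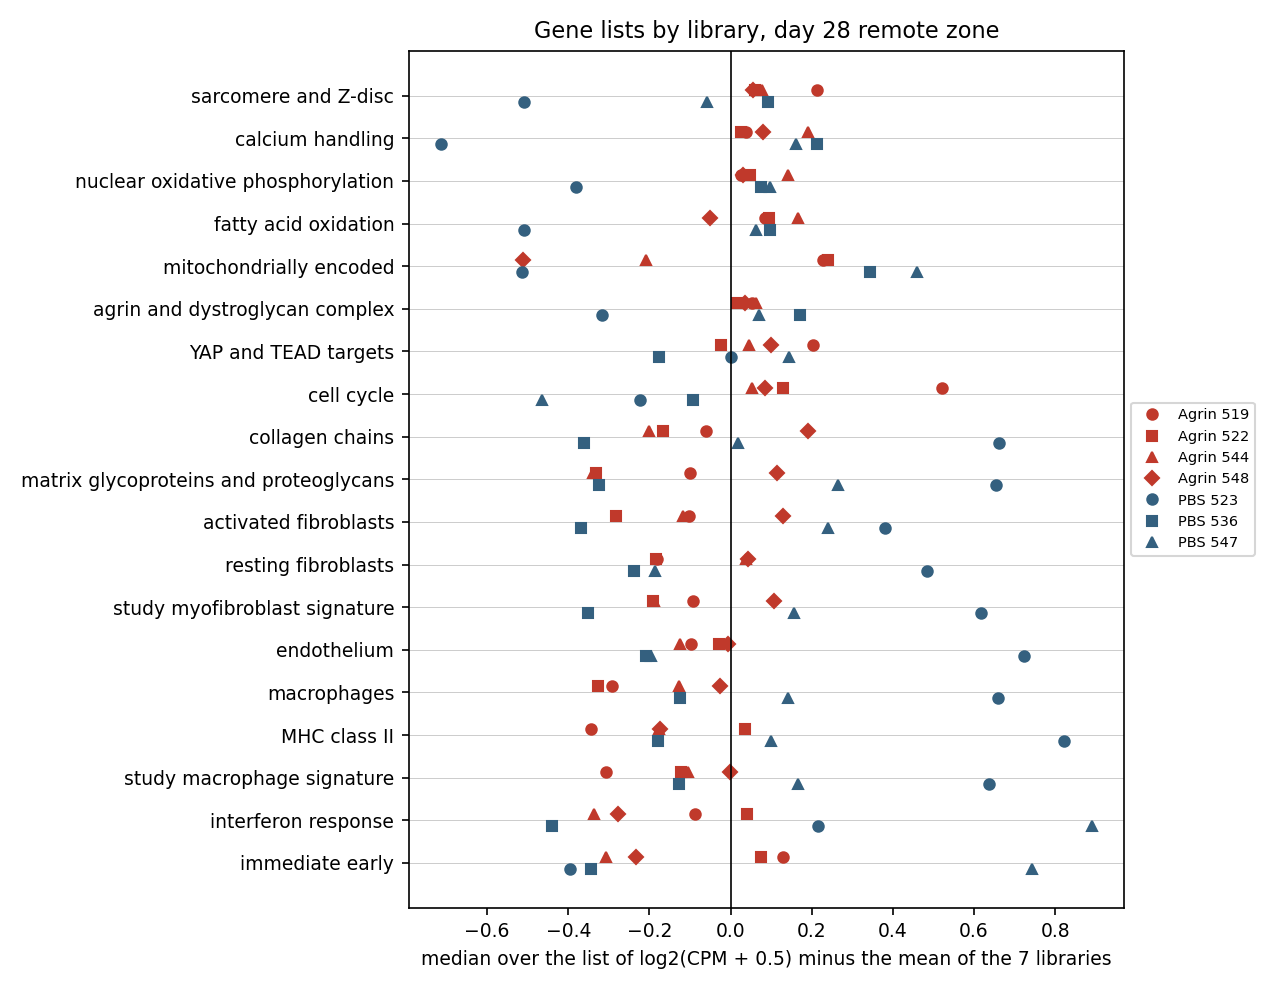
For 19 gene lists, the median over the list's genes of log2(CPM + 0.5) minus that gene's mean of the 7 libraries, with 1 point per library, Agrin in red above PBS in blue. PBS animal 523 lies at one end for cardiomyocyte, matrix, vessel and macrophage lists, and PBS animal 547 at one end for interferon response and immediate early genes.

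Another PBS library, from animal 547, had the highest summed level for several lists, 2 of which are described here. Others included matrix proteases and inhibitors (1781 CPM), the ER stress response (2004 CPM) and T and NK cell genes (92.3 CPM). Of 24 interferon response genes tested, all 24 were negative, 5 were at an unadjusted p under 0.05 (beside 2.9% of all genes lower), and the median of -0.56 was -0.18 without PBS animal 547. MX2, an antiviral GTPase, was at -1.14 ± 0.32 with groups that did not overlap, and MX1 at -1.39 ± 0.47. Without animal 547 they were at -0.46 and -0.65. The summed level was 557, 661, 550 and 522 CPM in Agrin libraries, against 743, 460 and 1261 CPM in PBS animals 523, 536 and 547. Immediate early genes, rapidly induced transcription factors, summed to 832, 780, 523 and 548 CPM in Agrin libraries, against 571, 520 and 2681 CPM in PBS libraries. Their median was -0.27, and 0.45 without animal 547. With PBS animal 536 left out instead, the medians were -0.83 for interferon response and -0.54 for immediate early genes.

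Cardiomyocyte genes had mostly positive fold changes, again with no gene past the test. Of 22 sarcomere and Z-disc genes, 18 were positive, 4 had all Agrin libraries above all PBS libraries (beside 2.86% of all genes) and 2 were higher at an unadjusted p under 0.05 (beside 1.68%), with a median of 0.10 that was 0.03 without animal 523. MYH7 was at 0.42 ± 0.18 (edgeR adjusted p = 0.967), and NEBL, which encodes the Z-disc protein nebulette, at 0.42 ± 0.18. Without PBS animal 523 they were at 0.22 and 0.24. ATP2A2, which pumps calcium into the sarcoplasmic reticulum, had 2564, 2364, 3003 and 2744 CPM in Agrin libraries, against 1083, 3233 and 2790 CPM in PBS libraries. Its log2 fold change of 0.17 ± 0.28 was -0.17 without animal 523. Calcium handling genes had a median of 0.13, and 0.02 without animal 523. Nuclear genes of oxidative phosphorylation had a median of 0.09, and 0.00 without it, and for fatty acid oxidation the values were 0.09 and -0.07. With PBS animal 536 left out instead, the medians were 0.26 for sarcomere and Z-disc genes and 0.28 for calcium handling. They were then 0.15 for oxidative phosphorylation and 0.23 for fatty acid oxidation.

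NPPB, a natriuretic peptide gene that rises with wall stress, had the widest interval of the 17 genes always reported. It had 391, 20.4, 10.3 and 35.0 CPM in Agrin libraries, against 19.3, 35.2 and 138.2 CPM in PBS libraries, so that 1 animal of each group was far above the rest. Its 95% interval ran from -2.23 to 3.90 on the log2 scale, and without Agrin animal 519 the log2 fold change was -1.56 in place of 0.83. PDK4, which restrains glucose oxidation, ranged from 110.0 to 597 CPM in Agrin and from 80.0 to 557 CPM in PBS libraries. LRP1, MYH6 and NPPA, also among the 20 genes always to be reported, were not analysed here under these symbols. Of the 17 analysed, 0 passed the adjusted p, 1 (MYH7) had groups without overlap, and 7 had a 95% interval inside a 2-fold change.

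**Figure D4:**
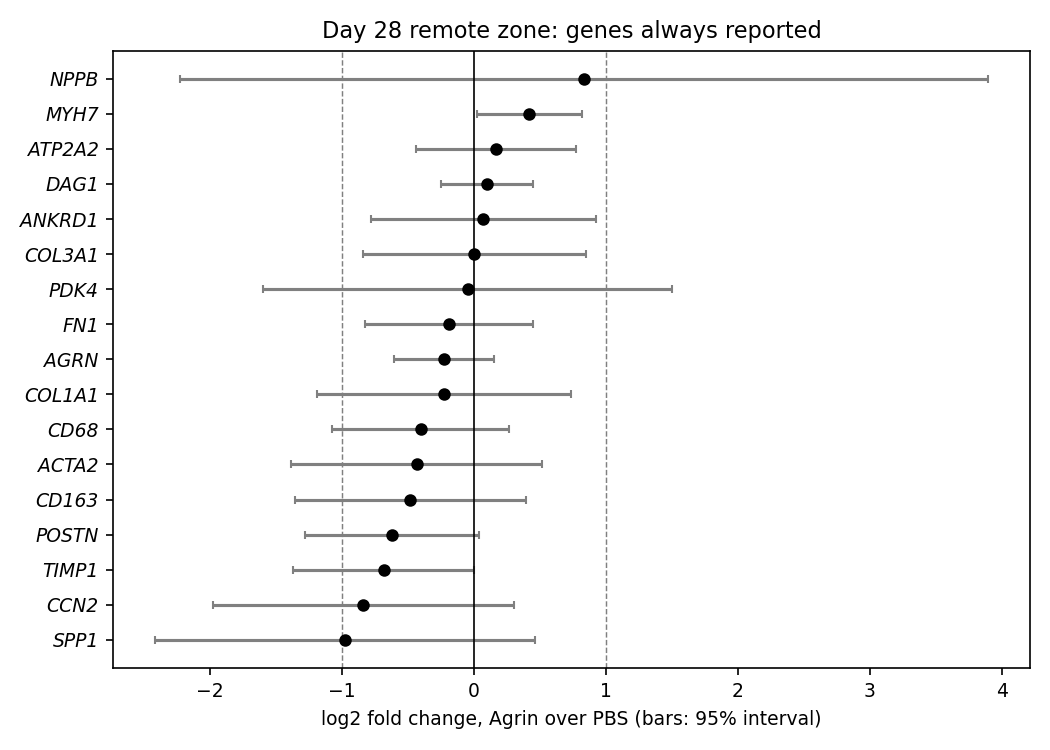
Log2 fold change of Agrin over PBS for 17 genes reported whatever their result, with 95% intervals from edgeR and dashed lines at a 2-fold change. The interval excludes 0 for MYH7 alone, whose adjusted p was 0.967 by edgeR and whose fold change was 0.22 without PBS animal 523, and is widest for NPPB.

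Cell cycle genes had mostly positive fold changes. Of 18 tested, 17 were positive, 6 had every Agrin library above every PBS library (beside 2.86% of all genes), 2 were higher at an unadjusted p under 0.05 (beside 1.68%) and 0 passed the adjusted p. The median was 0.46, and ranged from 0.36 without Agrin animal 519 to 0.54 without Agrin animal 544 as each animal was left out in turn. BUB1, a spindle checkpoint kinase, was at 0.84 ± 0.38, and NUSAP1, a spindle protein, at 0.38 ± 0.17. The summed level was 175, 131, 121 and 123 CPM in Agrin libraries, against 113, 112 and 94.4 CPM in PBS libraries, so the groups did not overlap, though the lowest Agrin and highest PBS values were close. The same animals' infarct zones held 92.2 to 158 CPM in Agrin and 163 to 217 CPM in PBS libraries. The groups there stood apart in the opposite order. On day 3 the remote sums overlapped, at 78.3 to 229 CPM in Agrin and 79.1 to 129 CPM in PBS libraries.

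The effect on day 28 was also set against that on day 3 in the remote zone, where 4 Agrin and 3 PBS libraries came from other animals. Of 14324 genes, 0 had a difference between the day 28 and day 3 effects past the adjusted p with edgeR (0.0%), with 538 at an unadjusted p under 0.05 and a lowest adjusted p of 0.998. DESeq2 placed 4 genes past the adjusted p, THBS4 with a difference of -1.45 (adjusted p = 0.0103), PRDX1, TMEM69 and an unnamed gene. For TRAP1 the log2 fold change on day 3 was 0.15 ± 0.09 and the difference between days 0.46 ± 0.13, and for HMOX1 they were -0.20 ± 0.16 and -0.82 ± 0.23, neither past edgeR's test.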

How the data were processed

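Bulk polyA RNA sequencing of pig heart gave raw counts per gene. Before they deposited the counts, the authors used cutadapt for trimming, STAR 2.7.3a for alignment, Picard 2.22.4 for collapsing reads by molecular identifier and HTSeq for counting. Per the labels, bcl2fastq 2.20.0.422 and DESeq2 1.26.0 are also named in the submitters' processing notes. Deposited normalized tables were not used, since their size factors were set within a treatment and day, and 7 columns of counts (day 3 infarct) were not used. Of 17603 genes, 13009 had a symbol in the files, 661 gained one from a reference table and 3933 had none.

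The 14 remote libraries of day 3 and day 28 were fitted together with edgeR 4.0.16 in R 4.3.3 (filterByExpr, TMM, robust quasi-likelihood, 4 groups, no block), so the spread is shared over both days. Called genes had an adjusted p under 0.05, differed at least 2-fold and reached more than 30 counts in a library. The SE was derived from the F statistic. Levels are TMM-scaled CPM over 21 libraries, the 14 remote ones and the 7 infarct ones of day 28; sums of levels over a list are weighted to its most abundant genes. Separate pigs are the replicates. Library pairs within a group had at most 3.52% of genes at equal counts, so none was a copy. The exact permutation test used Python 3.11.15 with scipy 1.17.1. DESeq2 1.42.0, median-of-ratios factors, library totals alone, removal of mitochondrially encoded genes, no filter, the 7 day 28 libraries alone and leaving out each animal were tried as alternatives. The pipeline was tested on simulated data.

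Named genes were the 12 with a symbol and the lowest p in each direction, 20 genes always reported, and up to 4 lowest-p members of a described list. The comparison, lists and tests were chosen with earlier results of these data known. The lists numbered 46 and were described without a set test, and positions came by symbol from RefSeq (Sscrofa11.1).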

Additional observations from a re-analysis of the deposited data

Results flagged for a closer look

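Of 91 groups of 4 Agrin values examined, 6 held a library whose gap to its nearest neighbour was past the 95% limit of Dixon's test, which chance alone passes in about 1 group in 20. Agrin animal 548 was the high one for COL1A1 (2283 CPM), SPP1 (13.6 CPM), the summed collagen chains (12535 CPM) and the study's myofibroblast signature (17156 CPM), which share genes. Agrin animal 519 was high for NPPB (391 CPM) and low for the sum of TIMP1 and its candidate receptors (1529 CPM, against 1716 to 1726 CPM in the other 3). TIMP1 itself was at 13.03 CPM in that animal, inside the 11.5 to 16.1 CPM of the other Agrin libraries. The low sum therefore lay in the far more abundant candidate receptors and not in TIMP1. The PBS group, with 3 libraries, was too small for this test.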

How the results depend on the processing

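No paired analysis was possible because the Agrin and PBS libraries of a zone came from different animals; the numbers that groups share are those of the 2 zones of 1 animal. DESeq2 moved the count of genes called from 0 to 5, that past the adjusted p alone to 9, and that of the difference between days to 3. Leaving out 1 animal gave 0 to 1 genes called and 0 to 1 past the adjusted p, with 1 each without PBS animal 523 (ENSSSCG00000012071) and without PBS animal 536 (HMOX1). Without PBS animal 536, 1443 genes were at an unadjusted p under 0.05, against 656 with all animals. The remaining scalings, the fit without a filter and the 7 libraries alone gave 0 genes. The difference in mitochondrial share ranged from -6.30 to -0.19 percentage points.

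Of the 56 genes named in the text, signs turned without 1 animal for 10, each with an edgeR adjusted p over 0.05 in the full set. Their ranges over the left-out animals were -0.076 to 0.25 for DAG1, -0.61 to 0.051 for COL1A1, -0.24 to 0.56 for COL3A1, -0.68 to 0.034 for ACTA2, -1.60 to 0.31 for SPP1, -1.56 to 2.07 for NPPB, -0.17 to 0.45 for ATP2A2, -0.61 to 0.65 for PDK4, -0.12 to 0.35 for ANKRD1 and -1.21 to 0.39 for CCN2. COL3A1 was also at -0.053 with library totals alone. The cause was not tested. With 3 PBS libraries, 2-fold differences of genes under 5 CPM were mostly within the interval.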

Other observations

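In the lists not described above, 0 genes passed the adjusted p, and medians of log2 fold changes (-0.02 over all genes) were mostly negative. Among leukocytes and their signals, T and NK cell genes were at -0.51 (-0.11 without PBS animal 547), neutrophil genes at -0.50, cytokines and chemokines at -0.43 (0.13 without PBS animal 523), B and plasma cell genes at -0.24, lipid-associated macrophage genes at -0.18 and complement genes at -0.14. B and plasma cell genes turned to 0.06 and complement genes to 0.15 without PBS animal 523. Among stromal lists, activated fibroblasts were at -0.43, TIMP1 and its candidate receptors at -0.32, matrix proteases and inhibitors at -0.27, mesothelium and epicardium at -0.25, resting fibroblasts at -0.23 (0.14 without PBS animal 523), collagen processing at -0.19, Schwann cells and nerve at -0.12, and pericytes and smooth muscle at -0.11. Matrix proteases and inhibitors turned to 0.08, Schwann cells and nerve to 0.30, and pericytes and smooth muscle to 0.01 without PBS animal 523. Activated fibroblasts were at -0.14 without PBS animal 523 and at -0.68 without PBS animal 536. Among regulatory and stress lists, the ER stress response was at -0.21, hypoxia and growth factors at -0.20, the glucocorticoid response at -0.17, circadian clock genes at -0.07, senescence at -0.06, and heat shock and protein folding at 0.04. The ER stress response turned to 0.06, circadian clock genes to 0.14 and senescence to 0.03 without PBS animal 547. Heat shock and protein folding turned to -0.13, and hypoxia and growth factors were at -0.01, without PBS animal 523. Among cardiomyocyte, blood and metabolic lists, mitochondrially encoded genes were at -0.19, erythroid genes at -0.09, the fetal and stress program at -0.06, atrial genes at -0.02, glucose use at 0.11, cardiac transcription factors at 0.22 and cardiac ion channels at 0.27. The fetal and stress program turned to 0.35 and erythroid genes to 0.38 without PBS animal 547. Mitochondrially encoded genes were at 0.00 without PBS animal 547 and at -0.43 without PBS animal 523. Atrial genes turned to 0.59, glucose use to -0.04 and cardiac transcription factors to -0.01 without PBS animal 523. Some of these medians rest on few genes. The erythroid and atrial lists had 3 genes tested each, the neutrophil list and the mesothelium and epicardium list 4 each, and B and plasma cells 5. Neutrophil genes were also rare, with sums of 3.65 to 6.00 CPM in Agrin and 4.96 to 7.11 CPM in PBS libraries.

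Lymphatic endothelium was at -0.43 over 5 genes and turned to 0.48 without PBS animal 523. Adipocyte genes were at 0.28 over 6 genes. Without PBS animals 523, 536 and 547 in turn they were at 0.84, 0.56 and 0.19. Centred on each gene's mean of the 7 libraries, their median log2 level was 0.18, -0.17, -0.26 and 0.65 in Agrin libraries. In PBS libraries it was -0.37, -0.15 and -0.64, so the groups overlapped. The highest values were those of Agrin animals 548 and 519. IRX4, a transcription factor of the ventricle, was at 0.55 ± 0.18, or 0.49 without PBS animal 523. PROX1, a transcription factor of lymphatic vessels that cardiomyocytes also express, was at 0.58 ± 0.24, or 0.40 without that animal. Neither passed the adjusted p (0.967 each with edgeR). Both had all Agrin libraries above all PBS libraries, beside 2.86% of all genes. Each was the only such gene of its list, among 16 cardiac transcription factors and 5 lymphatic genes tested.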
